A study of Arabidopsis thaliana with 9 samples.

Results

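Calcineurin B-like proteins (CBLs) are calcium sensors and CBL-interacting protein kinases (CIPKs) are the kinases that they switch on. Here 10 genes of these families were followed in leaves of Arabidopsis thaliana under salt: the sensor genes CBL1, CBL2, CBL3 and CBL9, and the kinase genes CIPK1, CIPK3, CIPK6, CIPK20, CIPK21 and CIPK23. They were taken by their locus identifiers from the 21176 genes of the deposited table, which held all 10. All 10 also passed the filter on low values, a mean of at least 10 normalised counts over the 9 libraries, which left 18650 genes to be tested. A normalised count is the authors' read count of a gene after scaling between libraries, rounded to a whole number.

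Every plant was of the accession Col-0, 5 weeks old and grown in hydroponic culture with 13 h of light at 21 °C, and RNA came from rosette leaves. The Phase 1 group was harvested 2 days after NaCl in the culture solution had reached 90 mM in steps of 15 mM per day. The Phase 0 group was harvested 1 h after a single addition of 105 mM NaCl. The Control group received no such treatment. Each group had 3 libraries. Phase 1 and Phase 0 thus differ at once in salt level, in duration and in the manner of addition, which cannot be told apart in these data. The labels do not say whether replicates were separate plants, so p-values measure only the spread between these samples, which may be technical. They also give no hour of harvest.

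Library totals ran from 22786946 to 27820610 normalised counts. The first principal component, with 56.8% of the variance, separated the Phase 1 libraries from the other 6, and the third (12.2%) set Control replicate 1 at 61.23 against -33.66 and -11.46 for the other Control replicates. Organelle transcripts made up 0.605% of Phase 0 replicate 2, beside 0.0414% to 0.0575% elsewhere. Markers were those of leaf: the 7 mesophyll markers summed to 1309600 to 1553334 in Phase 1, 1522059 to 1656508 in Phase 0 and 1765563 to 2009087 in Control. Of 7 root markers 3 were in the table, and the endodermal gene CASP1 never exceeded 10 in any library. The sum of the root list, nearly all of it SCR, which leaf bundle sheath also expresses, was 1217 to 1559 in Phase 1, 576 to 684 in Phase 0 and 709 to 752 in Control. Guard cell markers (6 of 6 in the table) summed to 32799 to 64137 in Phase 1, 68496 to 70902 in Phase 0 and 35532 to 77832 in Control. Companion cell and phloem markers (5 of 5) summed to 10560 to 12651 in Phase 1, 11465 to 11986 in Phase 0 and 10449 to 14092 in Control. Of 5 flower and shoot apex markers 1 was in the table, AG, at 17 to 24 in Phase 1, 21 to 37 in Phase 0 and 16 to 27 in Control. In bulk leaf RNA, fewer cells of a type and less RNA per cell cannot be told apart.

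A CBL binds calcium with its EF hands and then docks onto the NAF motif of a CIPK, which lifts the autoinhibition of the kinase and brings it to the membrane where that CBL is anchored. CBL1 and CBL9 sit at the plasma membrane, where with CIPK23 they activate the potassium channel AKT1, while CBL2 and CBL3 sit at the vacuolar membrane. Salt, drought and cold all raise calcium in the cytosol. The best known salt circuit of the family is the SOS pathway, in which CBL4 (SOS3), or CBL10 in shoots, recruits CIPK24 (SOS2) to the sodium exporter SOS1.

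CBL2 and CBL3 had the most alike coding sequences among the sensors described. In Phase 1 CBL2 fell and CBL3 was not called, a difference between the genes that was not tested. In RefSeq TAIR10.1 the coding sequences were 85.9% identical over 681 aligned bases, with a longest shared run of 32 bases. Reads were 75 bases long, and no 75-base window of the transcripts of either gene was found in another annotated gene. CBL1 and CBL9 were 82.8% identical, with a longest run of 35 bases, and also shared no such window with any gene.

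Transcripts of the kinases CIPK1 and CIPK6 rose in Phase 1 against Control, and those of the kinases CIPK20 and CIPK21 and of the sensor CBL2 fell. In Phase 0 against Control 1 gene was called, CIPK20, which fell. Between the salt treatments, CIPK1 and CIPK6 were higher in Phase 1, and CBL2 and CIPK21 lower. Each test was limma on log2(normalised count + 1) with Benjamini-Hochberg adjustment over the 18650 genes, called at an adjusted p under 0.05, and every fold change and log2 value is on that scale.

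Of the 10 genes, 0 were called higher, 1 lower and 9 not in Phase 0 against Control, where 2.93% of all genes tested were called, 1.28% higher and 1.66% lower. At an unadjusted p under 0.05 there were 4 of the 10, beside 3508 of the 18650 genes tested. Against Control in Phase 1, 2 were higher, 3 lower and 5 not called, and 36.1% of all genes were called, 17.4% higher and 18.6% lower. Phase 1 against Phase 0 gave 2 higher, 2 lower and 6 not called, beside 28.1% of all genes, 13.7% higher and 14.4% lower. The median log2 fold changes of the 10 genes were 0.06, -0.09 and -0.02 in these 3 comparisons, and those of all genes tested 0.01, 0.00 and -0.01. The shares of the 10 and of all genes were not tested against each other, and what follows concerns which members moved and how far. Libraries of the groups did not overlap for 2 members in Phase 0 against Control (23.2% of all genes), for 7 in Phase 1 against Control (47.4%) and for 6 in Phase 1 against Phase 0 (50.2%). The summed mesophyll markers were lower, and SCR higher, in Phase 1 than in Control, and their part in these counts was not tested. Of the mesophyll markers, only LHCB1.3 and PSAD-1 were called lower there (adjusted p = 0.00593 and 0.00899). CA1 was higher without being called (log2 0.17, adjusted p = 0.486).

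**Figure D1:**
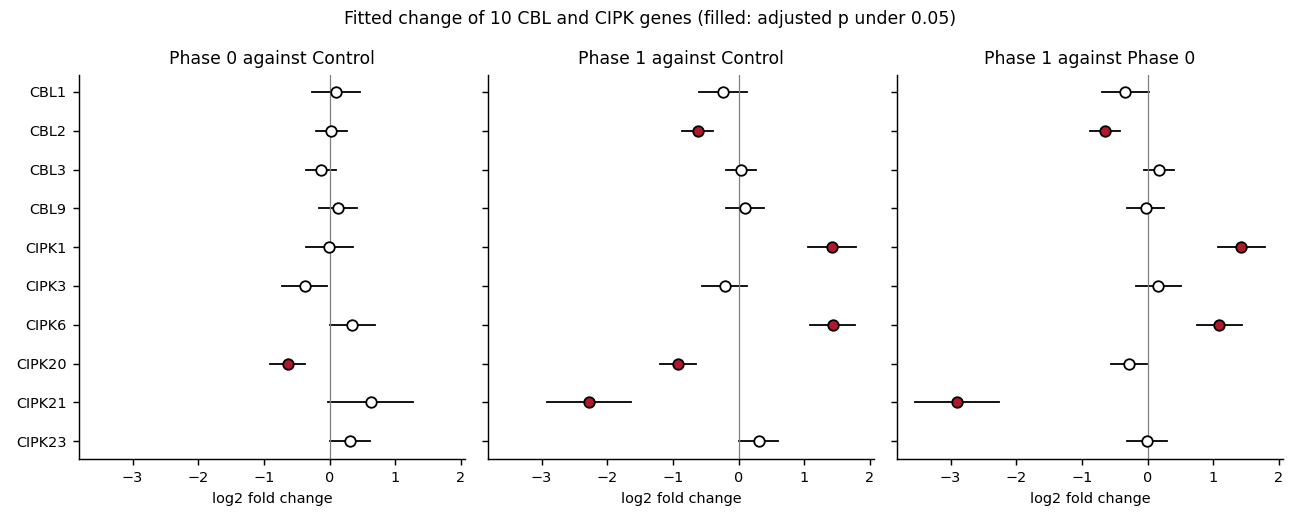
Fitted log2 fold changes of the 10 genes in the 3 comparisons, with bars for the 95% interval of the limma fit and filled points for an adjusted p under 0.05. CIPK1 and CIPK6 lie to the right of 0 in both Phase 1 panels and CIPK21 lies farthest to the left, at -2.28 and -2.90, while the Phase 0 panel has 1 filled point, CIPK20 at -0.64.

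Among the sensors, CBL2 fell in Phase 1 and the other genes did not pass the test in any comparison. CBL2 (AT5G55990) had 973, 1159 and 1015 normalised counts in Phase 1, against 1602, 1649 and 1676 in Phase 0 and 1585, 1584 and 1664 in Control. All 3 Phase 1 libraries lay below the other 6, which spanned a narrow range, with SDs of 37.5 in Phase 0 and 45.9 in Control (n = 3 each). The fit gave a 1.54-fold fall against Control (log2 -0.62, SE 0.105, adjusted p = 0.0013) and a 1.57-fold fall against Phase 0 (log2 -0.65, adjusted p = 0.00129). Phase 0 and Control overlapped, and the 95% interval of their fold ran from 0.867 to 1.20.

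CBL3 (AT4G26570), the close relative of CBL2 at the same membrane, had 1036, 1007 and 959 normalised counts in Phase 1, against 937, 849 and 882 in Phase 0 and 1027, 948 and 943 in Control. Its 3 Phase 0 libraries were below all the others, yet the difference from Control was small and not called (log2 -0.13, adjusted p = 0.533), as was that of Phase 1 from Phase 0 (log2 0.17, adjusted p = 0.251). Per kilobase of exon, the ratio of CBL2 to CBL3 was 0.877, 1.07 and 0.989 in Phase 1, against 1.60, 1.81 and 1.77 in Phase 0 and 1.44, 1.56 and 1.65 in Control. The vacuolar sensors were thus present at about equal transcript levels in Phase 1, and CBL2 was ahead in every Phase 0 and Control library.

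CBL1 (AT4G17615), a plasma membrane sensor that also responds to cold and drought, had 231, 233 and 255 normalised counts in Phase 1, against 252, 319 and 346 in Phase 0 and 333, 262 and 259 in Control. Phase 1 lay below all Control libraries but within reach of the lowest Phase 0 library, and neither difference was called (adjusted p = 0.278 and 0.149). The 95% interval of the fold of Phase 1 over Control was 0.660 to 1.09. The annotation overlaps CBL1 by 29 bases with AT4G17616 on the same strand.

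CBL9 (AT5G47100), which shares much of the work of CBL1, had 279, 308 and 303 normalised counts in Phase 1, against 313, 287 and 309 in Phase 0 and 254, 269 and 310 in Control. The 3 groups overlapped throughout. Intervals of the fold (95%) were 0.877 to 1.31 for Phase 1 over Control and 0.896 to 1.33 for Phase 0 over Control.

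**Figure D2:**
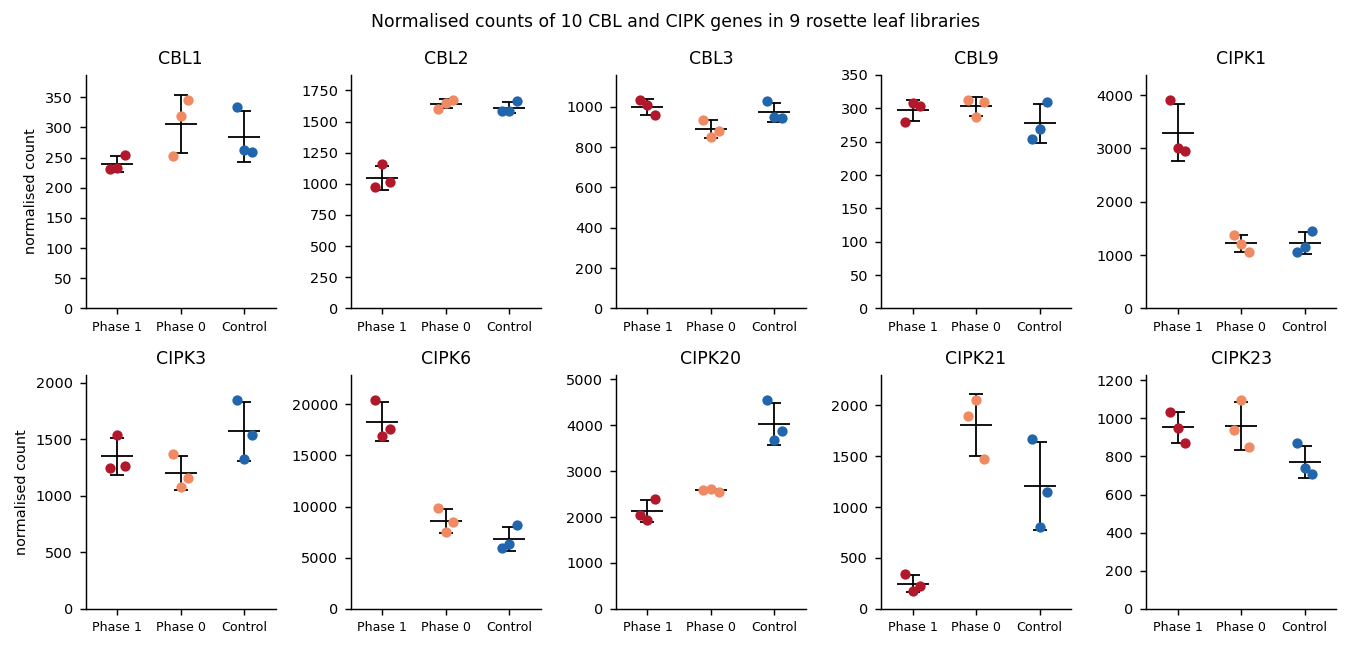
Normalised counts of the 10 genes in each of the 9 libraries (points, replicates 1 to 3 from left to right in a group), with the mean and SD of each group (bars, n = 3), on axes that start at 0. The 3 Phase 1 points stand clear of the other 6 for CBL2, CIPK1, CIPK6 and CIPK21, and the 3 Control points stand clear for CIPK20.

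Among the kinases, CIPK6 and CIPK1 rose in Phase 1. CIPK6 (AT4G30960), a kinase that with CBL4 brings the phloem potassium channel AKT2 to the plasma membrane, had 20437, 16924 and 17595 normalised counts in Phase 1, against 9874, 7542 and 8441 in Phase 0 and 5969, 6311 and 8158 in Control. The lowest Phase 1 library was well above the highest of the other 6, and Phase 0 and Control overlapped. The rise was 2.71-fold against Control (log2 1.44, SE 0.154, adjusted p = 8.62e-05) and 2.13-fold against Phase 0 (log2 1.09, adjusted p = 0.000554). Phase 0 against Control was 1.27-fold, with an interval of 1.00 to 1.61 and an adjusted p of 0.262.

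CIPK1 (AT3G17510), which works with CBL1 and CBL9 in osmotic stress and abscisic acid (ABA) responses, had 3915, 3012 and 2954 normalised counts in Phase 1, against 1385, 1206 and 1064 in Phase 0 and 1060, 1156 and 1457 in Control. Phase 1 was again clear of the other groups, which spanned nearly the same range as each other. CIPK1 rose 2.69-fold against Control (log2 1.43, SE 0.164, adjusted p = 0.000131) and 2.695-fold against Phase 0 (adjusted p = 0.00015). In Phase 0 against Control the fold was 0.998, with a 95% interval of 0.776 to 1.28 and an adjusted p of 0.996. CIPK17, its closest relative by coding sequence (79.1% identical), had 44, 49 and 45 normalised counts in Phase 1, against 91, 73 and 55 in Phase 0 and 70, 50 and 79 in Control, and was not called in any comparison.

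CIPK21 and CIPK20 fell. CIPK21 (AT5G57630), which acts with CBL2 and CBL3 at the vacuolar membrane in osmotic and salt stress, had 342, 173 and 228 normalised counts in Phase 1, against 1893, 2054 and 1468 in Phase 0 and 1668, 807 and 1151 in Control. The highest Phase 1 library was below the lowest Control library, whereas Phase 0 and Control overlapped. The fall was 4.84-fold against Control (log2 -2.28, SE 0.290, adjusted p = 0.000245) and 7.48-fold against Phase 0 (log2 -2.90, adjusted p = 6.34e-05), the largest changes among the 10 genes. Phase 0 against Control was 1.54-fold with an interval of 0.988 to 2.41 (adjusted p = 0.277). Control replicate 1, which stood apart on the third principal component, held the highest Control value.

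CIPK21 also varied most among replicates, with a coefficient of variation of 34.8% in Phase 1, 16.8% in Phase 0 and 35.9% in Control, where the median over genes with a mean of at least 100 was 10.5%, 9.59% and 16%. Of its 75-base windows, 10.3% (218 of 2112) recurred in AT5G57565, a gene elsewhere on chromosome 5 at chr5:23310284-23311855. AT5G57565 had 249, 205 and 234 normalised counts in Phase 1, against 311, 241 and 215 in Phase 0 and 174, 184 and 253 in Control, with all groups overlapping. The sources used here do not say how reads that match both genes were counted.

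Clock genes were set beside the CIPK21 difference after its values had been seen. LHY, a morning factor of the circadian clock, had 7626, 6097 and 5034 normalised counts in Phase 1, against 56, 117 and 64 in Phase 0 and 100, 95 and 96 in Control. PRR5, a repressor that peaks later in the day, had 24, 15 and 12 in Phase 1, against 2362, 2035 and 2315 in Phase 0 and 1219, 1472 and 1646 in Control. The Phase 1 libraries stood far from the other 6 in both clock genes, more widely than in any of the 10 genes. For CBL2, CIPK1 and CIPK6, as for CIPK21, the Phase 1 libraries were also clear of the other 6. The part of these clock differences in the CBL and CIPK results was not tested.

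CIPK20 (AT5G45820), also known as PKS18, a kinase that affects ABA sensitivity, had 2038, 1944 and 2404 normalised counts in Phase 1, against 2594, 2607 and 2550 in Phase 0 and 4554, 3680 and 3881 in Control. It was the 1 member whose Control libraries lay above every library of both salt groups. It fell 1.90-fold in Phase 1 against Control (log2 -0.92, SE 0.122, adjusted p = 0.000297) and 1.56-fold in Phase 0 against Control (log2 -0.64, adjusted p = 0.0233), comparisons that share the Control libraries. The Phase 0 call missed the threshold without Control replicate 3 or without any 1 of Phase 0 replicates 1, 2 and 3 (highest adjusted p 0.117), and at an adjusted p of 0.0501 in limma without the trend option. Phase 1 lay below Phase 0 in all libraries, but that difference was not called (log2 -0.29, adjusted p = 0.107).

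CIPK3 and CIPK23 were not called. CIPK3 (AT2G26980), a kinase of ABA and cold responses that CBL9 can activate, had 1245, 1537 and 1259 normalised counts in Phase 1, against 1372, 1079 and 1153 in Phase 0 and 1847, 1325 and 1533 in Control. The groups overlapped in all comparisons, and the lowest adjusted p was 0.222, for Phase 0 against Control, with an interval of the fold of 0.607 to 0.975. CIPK23 (AT1G30270), which regulates AKT1 and the nitrate transceptor NPF6.3, had 1035, 950 and 873 normalised counts in Phase 1, against 941, 1097 and 847 in Phase 0 and 868, 740 and 710 in Control. Each Phase 1 library was above each Control library, at a fitted 1.23-fold (adjusted p = 0.107, interval of 1.00 to 1.52). Without Control replicate 1 that difference passed, at an adjusted p of 0.0457. CIPK26, the closest relative of both by coding sequence (74.4% to CIPK3 and 68.1% to CIPK23), had 1916, 1796 and 1847 normalised counts in Phase 1, against 998, 990 and 1140 in Phase 0 and 1183, 942 and 1146 in Control, and rose 1.71-fold against Control (adjusted p = 0.000836).

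Levels of different genes were compared per kilobase of exon, where a base in an exon of any RefSeq TAIR10.1 transcript of the gene counted once. These lengths ran from 1332 bases for CBL9 to 3224 for CIPK3. The order of genes and their shares rest on that choice of length, and no other was tried. CIPK6 was first in every group, at 8497 ± 865 normalised counts per kb in Phase 1, 3998 ± 546 in Phase 0 and 3160 ± 546 in Control (SD, n = 3). In Phase 1 it was followed by CIPK1 (1108 per kb), CIPK20 (1107), CBL3 (641.5), CBL2 (628), CIPK3 (418), CIPK23 (372), CBL9 (223), CBL1 (118) and CIPK21 (117). Neighbours in that order whose libraries overlapped were CIPK1 and CIPK20, CBL3 and CBL2, CIPK3 and CIPK23, and CBL1 and CIPK21. In Phase 0 the order after CIPK6 was CIPK20 (1344 per kb), CBL2 (983), CIPK21 (853), CBL3 (570), CIPK1 (410), CIPK23 (375), CIPK3 (373), CBL9 (227.5) and CBL1 (151), with overlap of CBL2 with CIPK21 and along the stretch from CIPK1 to CIPK3. In Control it was CIPK20 (2100 per kb), CBL2 (965), CBL3 (623.5), CIPK21 (571), CIPK3 (486.5), CIPK1 (412), CIPK23 (301), CBL9 (208.5) and CBL1 (140), and each step from CBL3 to CIPK1 was within the spread of the libraries. CIPK21 was thus among the middle genes in Phase 0 and Control and at the low end, with CBL1, in Phase 1.

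The 6 kinases together summed to 11618 ± 1053 normalised counts per kb in Phase 1, 7352 ± 632 in Phase 0 and 7031 ± 654 in Control. CIPK6 made up 74.0%, 72.7% and 72.6% of that sum in the Phase 1 libraries, against 56.7%, 50.0% and 56.1% in Phase 0 and 38.5%, 46.4% and 49.9% in Control. CIPK20 made up 9.58% ± 1.43 of it in Phase 1, 18.4% ± 1.46 in Phase 0 and 30.0% ± 3.18 in Control. Its share was lower in each salt library than in each Control library. CIPK21 held 0.992% ± 0.254 of the Phase 1 sum, against 11.6% ± 2.03 in Phase 0 and 8.06% ± 2.58 in Control. The 4 sensors summed to 1611 ± 65.1 per kb in Phase 1, 1932 ± 35.3 in Phase 0 and 1937 ± 43.0 in Control. CBL2 supplied 39.0% ± 2.06 of the sensor sum in Phase 1, 50.9% ± 0.932 in Phase 0 and 49.8% ± 1.28 in Control. Shares and sums per kb are descriptions of the same values and carry no separate test.

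**Figure D3:**
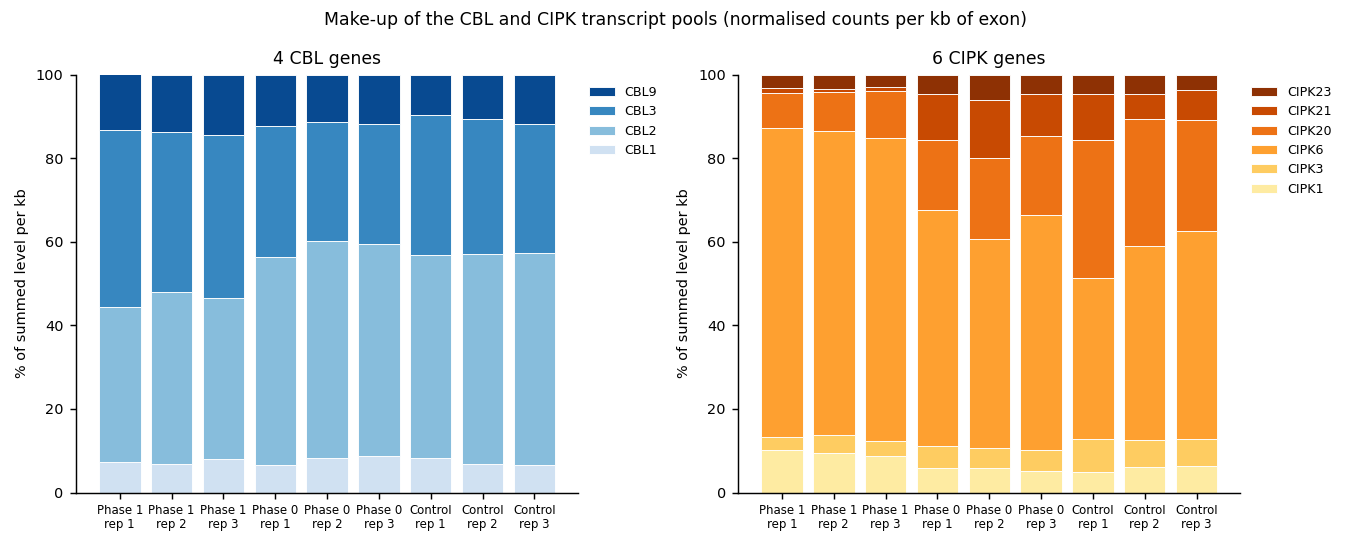
Share of each gene in the summed level per kb of exon of the 4 sensors (left) and of the 6 kinases (right), 1 bar for each library, with groups in the order Phase 1, Phase 0 and Control. CIPK6 fills 72.6% to 74.0% of the kinase bar in Phase 1 and 38.5% to 49.9% in Control, and the band of CIPK21 is barely visible in Phase 1.

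The 2 kinases that rose in Phase 1 are shown with the 250 bases before their annotated start, from RefSeq TAIR10.1, 5′ to 3′ on the strand of the gene. The CIPK6 stretch is chr4:15066778-15067027 on the plus strand, with the G-box in capitals, which starts 155 bases before the gene. The CIPK1 stretch is chr3:5993002-5993251 on the minus strand, with the CCA1-binding site (CBS) in capitals, which starts 82 bases before the gene.
CIPK6: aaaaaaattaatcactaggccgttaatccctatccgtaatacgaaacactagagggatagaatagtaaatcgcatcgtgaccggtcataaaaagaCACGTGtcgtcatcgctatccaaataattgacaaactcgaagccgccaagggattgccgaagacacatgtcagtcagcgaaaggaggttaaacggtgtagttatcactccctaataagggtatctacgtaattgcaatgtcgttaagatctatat
CIPK1: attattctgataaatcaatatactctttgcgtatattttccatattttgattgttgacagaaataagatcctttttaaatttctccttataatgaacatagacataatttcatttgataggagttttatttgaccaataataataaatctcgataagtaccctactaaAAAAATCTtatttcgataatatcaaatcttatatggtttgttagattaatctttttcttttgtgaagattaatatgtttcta
The motifs were searched on both strands in 27561 promoters of protein-coding genes. The ABA-response core ACGTG occurred in 22.9% of them and before CBL3, CBL9 and CIPK6. The G-box CACGTG, which holds ACGTG on either strand, occurred in 6.46% and before CBL9 and CIPK6. CBS, AAAAATCT, occurred in 6.69% and before CIPK1 alone of the 10 genes. The dehydration-response core CCGAC occurred in 12% and before CIPK20, the rapid stress response element CGCGTT in 2.58% and before CBL9, and the evening element AAATATCT in 4.77% and before none of the 10. No motif was held by both CIPK1 and CIPK6, and CBL9 had the most kinds of match without a called change. A match describes the letters in this window and is not evidence of a working site.

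The 3 members with the largest moderated F over the groups, CIPK21, CIPK1 and CIPK6, were set beside the genes most like them over the 9 libraries, by the root mean square difference of centred log2 values among 14601 genes with a mean of at least 100. For CIPK21 these were AT5G18540 (0.270), the B-box gene BBX13 (0.284) and AT1G70420 (0.345), where the median gene was at 1.32. For CIPK1 they were AT5G01880 (0.125), the GRAS gene SCL3 (0.126) and AT4G13400 (0.148), with a median of 0.735. For CIPK6 they were AT5G08430 (0.097), AT3G05345 (0.099) and AT4G32295 (0.115), with a median of 0.674. None of the other members was among the nearest 3 of CIPK21, CIPK1 or CIPK6, and the other 7 members were not ranked in this way.

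The other members of the families number 26, of which 23 were in the table and 20 passed the filter. CBL7, CBL8 and CIPK11 were not analysed here, and CBL5, CIPK16 and CIPK19, the closest relative of CIPK20, were below the filter. In Phase 0 against Control 1 of the 20 was called higher and 1 lower (median log2 0.11), and the total of 2 became 0 without Control replicate 3, Phase 0 replicate 1 or Phase 0 replicate 3 and 1 without Phase 0 replicate 2. Of all genes tested, 1.28% were called higher there and 1.66% lower. Phase 1 against Control had 8 of the 20 higher and 1 lower (median 0.31), beside 17.4% and 18.6% of all genes. In Phase 1 against Phase 0 7 of the 20 were higher and 2 lower (median 0.14), beside 13.7% and 14.4% of all genes, and the total was 4 without Phase 1 replicate 1.

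CIPK5 rose in both salt treatments. It had 2321, 1624 and 2224 normalised counts in Phase 1, against 926, 766 and 806 in Phase 0 and 469, 445 and 466 in Control. The groups formed 3 separate steps, with 4.41-fold in Phase 1 (adjusted p = 6.61e-06) and 1.80-fold in Phase 0 (adjusted p = 0.0157) over the same Control libraries. The Phase 0 call was lost without Control replicate 3 or Phase 0 replicate 1 or 3 (highest adjusted p 0.0754).

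CIPK15, a kinase known as PKS3 that binds the phosphatases ABI1 and ABI2 and damps ABA signalling, had 945, 1817 and 1581 normalised counts in Phase 1, against 296, 239 and 314 in Phase 0 and 526, 816 and 881 in Control. Phase 0 was below, and Phase 1 above, every Control library. It fell 2.57-fold in Phase 0 (log2 -1.36, adjusted p = 0.0234) and rose 1.93-fold in Phase 1 against Control (log2 0.95, adjusted p = 0.0171). Against Phase 0 it was 4.95-fold higher in Phase 1 (adjusted p = 0.000136). The fall was lost without Control replicate 3 or any 1 of Phase 0 replicates 1, 2 and 3 (highest adjusted p 0.101), and the rise over Control without Phase 1 replicate 2 or 3 (0.069).

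CIPK7, a kinase linked to the cold response, had 6864, 6586 and 6175 normalised counts in Phase 1, against 4631, 4738 and 3959 in Phase 0 and 3778, 2194 and 2546 in Control. It rose 2.36-fold in Phase 1 against Control (adjusted p = 0.000538) and was 1.48-fold higher in Phase 1 than in Phase 0 (log2 0.56, adjusted p = 0.0407). The second call was lost in limma without the trend option (adjusted p = 0.066) and without any 1 of Control replicate 3 and the 3 Phase 0 and 3 Phase 1 libraries (highest adjusted p 0.141). CIPK10 was 1.59-fold higher in Phase 1 than in Phase 0 (log2 0.67, adjusted p = 0.00203) and CIPK26 1.78-fold higher (log2 0.83, adjusted p = 0.000675). Of the 75-base windows of CIPK10, 5.3% (106 of 2000) recurred in AT5G58375. CIPK12, the closest relative of CIPK6 by coding sequence (69% identical), rose 1.26-fold in Phase 1 against Control (adjusted p = 0.04), a call lost without any 1 of Control replicates 2 and 3, Phase 0 replicates 1, 2 and 3 and Phase 1 replicates 1 and 2 (highest adjusted p 0.142). Limma without the trend option (adjusted p = 0.062) and a fit of these 2 groups alone (0.0918) lost that call too. CIPK12 was 1.37-fold higher in Phase 1 than in Phase 0 (adjusted p = 0.0119), and without Phase 1 replicate 1 the adjusted p was 0.0536.

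CBL4 (SOS3), the sensor of the SOS pathway in roots, had 17, 21 and 23 normalised counts in Phase 1, against 45, 33 and 46 in Phase 0 and 77, 43 and 73 in Control. The Phase 1 libraries were lowest at these small counts, 2.99-fold below Control (log2 -1.58, adjusted p = 0.00204) and 1.98-fold below Phase 0 (log2 -0.98, adjusted p = 0.0285). The second of these was lost without Phase 0 replicate 1 or 3 or Phase 1 replicate 1 or 2 (highest adjusted p 0.0998), and with quantile normalisation (0.0512). CBL6 was 2.11-fold higher in Phase 1 than in Control at means of 23.7 and 10.7 normalised counts (adjusted p = 0.0424), and leaving out any library but Control replicate 1 lost that call (highest adjusted p 0.154), as did a fit of these 2 groups alone (0.0839). CIPK25 had 7, 35 and 10 normalised counts in Phase 1, against 86, 134 and 35 in Phase 0 and 15, 38 and 20 in Control. It was 5.11-fold lower in Phase 1 than in Phase 0 (log2 -2.35, adjusted p = 0.019), although the groups met at 35, and lost the call without Phase 0 replicate 1 or 2 or Phase 1 replicate 1 or 3 (highest adjusted p 0.0809).

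The remaining parts of the SOS pathway were named here after their values had been seen. CIPK24 (SOS2) had 202, 217 and 205 normalised counts in Phase 1, against 213, 220 and 191 in Phase 0 and 168, 200 and 208 in Control, with all groups overlapping (log2 0.12 and an adjusted p of 0.539 in Phase 1 against Control). CBL10 had 791, 922 and 1039 in Phase 1, against 1330, 879 and 952 in Phase 0 and 1183, 1178 and 1375 in Control. It was below all Control libraries in Phase 1 without being called (log2 -0.45, adjusted p = 0.0637), and passed without Phase 0 replicate 1, at an adjusted p of 0.0319. SOS1, the sodium exporter, rose 1.59-fold in Phase 1 against Control (log2 0.67, adjusted p = 0.0107). In Phase 0 it was 1.45-fold above Control, with no overlap of libraries, but was not called (adjusted p = 0.118). Without Control replicate 2 that difference passed, at an adjusted p of 0.0473. Phase 1 against Phase 0 was not called (log2 0.13, adjusted p = 0.6).

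**Figure D4:**
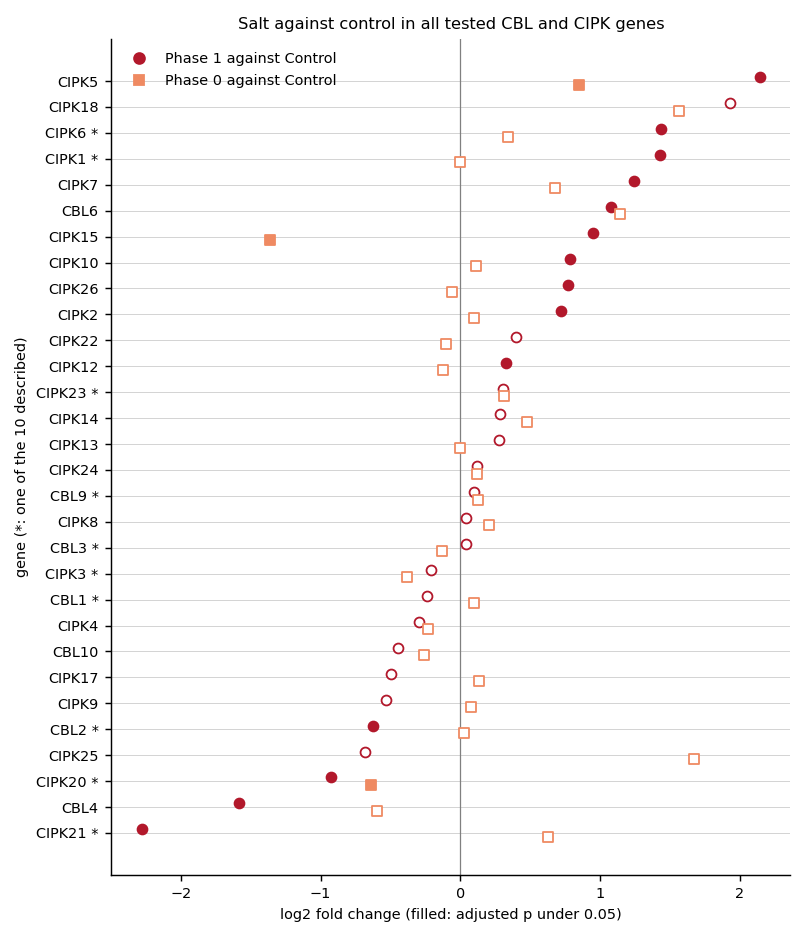
Fitted log2 fold changes against Control of the 30 tested CBL and CIPK genes, sorted by Phase 1 (circles), with Phase 0 as squares, filled where the adjusted p is under 0.05 and with * for the 10 genes described. CIPK5 has the highest Phase 1 value (2.14) and CIPK21 the lowest (-2.28), and 3 Phase 0 squares are filled: CIPK5, CIPK15 and CIPK20.

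Of 16 proteins that CBL-CIPK complexes are known to regulate, 14 were in the table and 13 were tested: HAK5 and IRT1 were not analysed here, and AMT1;1 was below the filter. In Phase 0 against Control 0 of the 13 were called with limma (6 at an unadjusted p under 0.05), with a median log2 of 0.02, and 2 were called without Control replicate 2 and 1 without Phase 1 replicate 2. The share called over all genes was 2.93% in that comparison, and 3508 of 18650 were at an unadjusted p under 0.05. For Phase 1 against Control 7 of the 13 were higher and 3 lower (median 0.63), beside 17.4% and 18.6% of all genes. In Phase 1 against Phase 0 5 of the 13 were higher and 2 lower (median 0.46), beside 13.7% and 14.4% of all genes. The genes that rose include transporters of ammonium, anions and potassium, given below.

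AMT1;2, an ammonium transporter of the family that CIPK23 inhibits, had 7368, 6642 and 5519 normalised counts in Phase 1, against 370, 326 and 483 in Phase 0 and 701, 210 and 379 in Control. It rose 16.9-fold against Control (log2 4.08, adjusted p = 2.28e-05) and 16.6-fold against Phase 0 (log2 4.06, adjusted p = 2.39e-05), while CIPK23 was not called. SLAH3, an anion channel that CIPK23 can activate, had 796, 833 and 618 in Phase 1, against 245, 224 and 318 in Phase 0 and 305, 292 and 228 in Control, a 2.72-fold rise over Control (adjusted p = 0.000247) and 2.86-fold over Phase 0 (adjusted p = 0.00022). Guard cell markers, whose sum is nearly all TGG1, summed to overlapping ranges in Phase 1 and Control. Of the 6, the potassium channel gene KAT1 was called higher in Phase 1 against Control (1.34-fold, adjusted p = 0.0289), a call lost without Control replicate 1 or Phase 1 replicate 1 or 3 (highest adjusted p 0.0858). GC1 had 755, 728 and 1483 normalised counts in Phase 1, against 2124, 1514 and 1537 in Control, and was not called (log2 -0.87, adjusted p = 0.0531). The part of these markers in the SLAH3 difference was not tested. NPF6.3, the nitrate transceptor that CIPK23 phosphorylates, was 2.52-fold higher in Phase 1 than in Phase 0 (log2 1.33, adjusted p = 8.05e-05).

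The potassium channels went in different directions. AKT2, the phloem channel that CIPK6 and CBL4 act on, had 3637, 2838 and 3622 normalised counts in Phase 1, against 1746, 1441 and 1649 in Phase 0 and 1546, 1425 and 1553 in Control. It rose 2.22-fold over Control (adjusted p = 0.00012) and 2.08-fold over Phase 0 (adjusted p = 0.000236). In these comparisons CIPK6 rose and CBL4, at small counts, fell, and a link of either to the AKT2 difference was not tested. Companion cell and phloem markers, summed, overlapped between all groups, but the sum is mostly AHA3 and single markers moved in opposite directions. SUC2, the phloem loading sucrose transporter, fell 1.70-fold in Phase 1 against Control (adjusted p = 0.00194) and 1.45-fold against Phase 0 (adjusted p = 0.0171), the second lost without Phase 0 replicate 2 or 3 or Phase 1 replicate 1 (highest adjusted p 0.0686). APL, a factor of phloem identity, was 1.43-fold higher in Phase 1 than in Control (adjusted p = 0.0119). AHA3, SEOR1 and FTIP1 were not called, and the part of the phloem markers in the AKT2 difference was not tested. AKT1, the uptake channel that CIPK23 activates, had 81, 59 and 62 in Phase 1, against 105, 138 and 104 in Phase 0 and 145, 113 and 125 in Control. It fell 1.89-fold against Control (adjusted p = 0.00544) and 1.71-fold against Phase 0 (adjusted p = 0.0165), the second lost without Phase 0 replicate 2 or Phase 1 replicate 2 or 3 (highest adjusted p 0.076).

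AHA2, a plasma membrane proton pump, had 1573, 1754 and 2038 normalised counts in Phase 1, against 2878, 3498 and 2951 in Phase 0 and 4095, 4585 and 3567 in Control. Phase 1 was 2.28-fold below Control (adjusted p = 0.00016) and 1.74-fold below Phase 0 (adjusted p = 0.0021). The Phase 0 libraries lay below those of Control, but that difference was not called (log2 -0.39, adjusted p = 0.174). RBOHF, an NADPH oxidase that CIPK26 binds, had 684, 986 and 664 in Phase 1, against 540, 567 and 565 in Phase 0 and 325, 366 and 413 in Control. It rose 2.09-fold in Phase 1 against Control (adjusted p = 0.000805).

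The 4 protein phosphatases 2C that bind CIPKs or their targets, ABI1, ABI2, PP2CA and HAI2, are negative regulators of ABA signalling. All 4 were called higher in Phase 1 against Control and in Phase 0 against Control, with median log2 fold changes of 1.91 and 1.69. Both comparisons share the Control libraries, and 17.4% and 1.28% of all genes tested were called higher in them. ABI2, a partner of CIPK24 and CIPK15, had 1485, 1218 and 970 normalised counts in Phase 1, against 802, 773 and 890 in Phase 0 and 234, 375 and 305 in Control. It was 1.47-fold higher in Phase 1 than in Phase 0 without being called (log2 0.56, adjusted p = 0.0572). That difference passed with quantile normalisation (adjusted p = 0.048) and in a fit of these 2 groups alone (0.026). Leaving out Control replicate 1 or 2 or Phase 1 replicate 3 also let it pass (highest adjusted p 0.0364). ABI1 had 3003, 2153 and 1778 in Phase 1, against 3811, 3280 and 3576 in Phase 0 and 1561, 1408 and 1400 in Control, and was 1.57-fold lower in Phase 1 than in Phase 0 (log2 -0.65, adjusted p = 0.0175). That call was lost without Phase 0 replicate 1 or 3 or Phase 1 replicate 2 or 3 (highest adjusted p 0.0585). HAI2, which binds AKT1, had 560, 303 and 272 in Phase 1, against 533, 477 and 526 in Phase 0 and 81, 53 and 48 in Control. Phase 1 against Phase 0 was not called for HAI2 (log2 -0.51, adjusted p = 0.197) or PP2CA (log2 -0.11, adjusted p = 0.712). For HAI2 that difference passed without Phase 1 replicate 1 (adjusted p = 0.0294). For each of the 4 genes every salt library was above every Control library. PP2CA, which binds AKT2, had 4783, 2771 and 2973 in Phase 1, against 3840, 3383 and 3789 in Phase 0 and 879, 1063 and 972 in Control.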

How the data were processed

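Messenger RNA libraries (TruSeq stranded, from 4 µg of total RNA) were sequenced as 75-base single reads, per the labels' protocols. The deposited scores are the authors' normalised counts, rounded to whole numbers. They were therefore tested as normalised values, not with a count model. Tools in the submitters' processing notes are DESeq2 1.62, featureCounts 1.4.5-p1, Subread, STAR 2.4.0a and FastQC, with the TAIR10 build and no role for each, and the depth in reads is not known from the table. The sources used here do not give the strand setting or the handling of shared reads.

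In R 4.3.3, limma-trend (limma 3.58.1) was run on log2(normalised count + 1) for all 9 libraries together, in 3 groups. It covered the 18650 genes whose mean reached 10, with Benjamini-Hochberg adjustment and a threshold of 0.05. Rows of the members and lists were read from that fit. The fit was also run on simulated data with independent noise and changes in Phase 0 only. That setting is simpler than these libraries, and no result here rests on it. Gene names, exon lengths, coding sequences and promoters came from RefSeq TAIR10.1, where all 10 loci matched, with Python 3.11.15 and Biopython 1.88. The table itself holds no coordinates. Relatives were ranked by identity of coding bases over at least 80% of the shorter sequence, in place of protein identity.

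The members and lists were chosen with earlier results of these data known. All members are named. Of the other family genes and regulated proteins, up to 4 called genes per direction and comparison with the largest change are named, with the closest relatives of members; 1 regulated protein that the rule names, counted in its list, is not reported here by name. Likeness was ranked for the 3 members with the largest F. Parts of the SOS pathway, clock genes, single cell type markers and AT5G57565 were added after values were seen. Alternatives changed the pseudocount, filter, normalisation, model, threshold and replicate block, or left out libraries.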

Additional observations from a re-analysis of the deposited data

Results flagged for a closer look

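The change against Control differed between Phase 1 and Phase 0 for the genes below, by the direct limma test of Phase 1 against Phase 0 (log2 differences, Benjamini-Hochberg adjusted p under 0.05), which called 28.1% of all genes tested. Many of them were named because they were called or were added after their values had been seen, so their number is not a result. Phase 1 and Phase 0 also differ in salt level, duration and manner of addition, and the harvest hour is not given.

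Among the 10 sensors and kinases, the differences were 1.43 for CIPK1 (adjusted p = 0.00015), 1.09 for CIPK6 (0.000554), -0.65 for CBL2 (0.00129) and -2.90 for CIPK21 (6.34e-05). For CIPK21 the fitted change was -2.28 in Phase 1 and 0.63 in Phase 0 against the same Control libraries, the second not called (adjusted p = 0.277).

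Among other family genes they were 2.31 for CIPK15, 1.29 for CIPK5, 0.83 for CIPK26, 0.67 for CIPK10, 0.56 for CIPK7 (adjusted p = 0.0407), 0.46 for CIPK12, -0.98 for CBL4 and -2.35 for CIPK25. CIPK15 was called in opposite directions against Control, at 0.95 in Phase 1 and -1.36 in Phase 0.

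Among regulated proteins they were 4.06 for AMT1;2, 1.51 for SLAH3, 1.33 for NPF6.3, 1.06 for AKT2, -0.77 for AKT1 and -0.80 for AHA2, and among the phosphatases -0.65 for ABI1. Among the clock and marker genes set beside the results they were 6.34 for LHY, -7.01 for PRR5, 1.17 for SCR and -0.53 for SUC2.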

How the results depend on the processing

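Of 96 results for named genes, 65 kept their direction and side of the threshold under all 20 alternatives, including the 9 calls of members that involve Phase 1. The number of the 10 genes called in Phase 0 against Control was 0 in limma without trend, at a threshold of 0.01 and with Phase 0 replicate 2 and Control replicate 1 both left out (an alternative chosen after seeing the data), and 0 to 1 with each library left out. For the other CBL and CIPK genes in that comparison it was 0 at 0.01 and 0 to 3 with a library left out, and for regulated proteins 0 to 2. Over all genes it was 124 at 0.01, 212 without both libraries, and 118 to 882 with a library left out (118 without Phase 0 replicate 3, 173 without Control replicate 3, 183 without Phase 0 replicate 2 and 882 without Control replicate 2). In Phase 1 against Control 3918 genes passed at 0.01 (4892 to 6757 with a library left out). In Phase 1 against Phase 0 2880 passed (3379 to 6710 with a library left out, the lowest without Phase 0 replicate 2), and 4 other CBL and CIPK genes (4 to 10, the lowest without Phase 1 replicate 1).

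Results that changed sign were uncalled. Their log2 fold changes in the main fit ran from -0.107 (PP2CA, Phase 1 against Phase 0) to 0.132 (CIPK17, Phase 0 against Control). With each library left out in turn, those in Phase 0 against Control ran from -0.099 to 0.13 for CIPK1, from -0.056 to 0.318 for CIPK17, from -0.162 to 0.002 for CIPK26 and from 0.026 to 0.179 for CIPK24, and without both libraries CIPK26 was at 0.038 and CIPK24 at -0.016. In Phase 1 against Phase 0 the ranges were -0.069 to 0.013 for CBL9, -0.096 to 0.09 for CIPK23, -0.352 to 0.041 for PP2CA and -0.058 to 0.043 for CIPK24. There CIPK23 was at 0.01 and CIPK24 at -0.004 with quantile normalisation, and CIPK23 at 0.09 without both libraries. With both libraries left out, calls were also lost for CIPK5 in Phase 0 against Control (adjusted p = 0.0554), CIPK15 and KAT1 in Phase 1 against Control (0.0509 and 0.0833) and CIPK25 in Phase 1 against Phase 0 (0.0651). The cause was not tested.

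Same-numbered libraries of different groups did not deviate together, with correlations of -0.25 to 0.25 over 9 pairs. Differently numbered pairs, 18 in all, ran from -0.34 to 0.33. Of 18 matches, 3 were best with the own number. No pairing by number was seen, which cannot exclude that samples were paired. With the replicate number as a block, 1, 5 and 4 of the 10 genes were called in Phase 0 against Control, Phase 1 against Control and Phase 1 against Phase 0, with 2, 8 and 9 other family genes, 0, 10 and 7 regulated proteins and 372, 6261 and 4835 genes in all. The block ended the calls of CBL6 and KAT1 in Phase 1 against Control (adjusted p = 0.0742 and 0.0525), and of no other named gene. KAT1 also missed the threshold in a fit of those 2 groups alone (0.0568). With 3 libraries a group and no read depths, small changes of low genes such as CBL4, CBL6 and CIPK25 are the least certain.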
